A study of Mus musculus with 6 samples.

Results

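The genes described here encode the cytochrome P450, UDP-glucuronosyltransferase, sulfotransferase and glutathione S-transferase enzymes, and their RNA was sequenced in adenomas of the small intestine from mice with an intact or a depleted Paneth cell lineage. Members were chosen by gene symbol: *Cyp1* to *Cyp4* genes, *Ugt1a*, *Ugt2a* and *Ugt2b* genes, *Sult* genes, and *Gst* genes of the mu, pi, theta, kappa, omega and zeta classes, with the alpha class left out. This gave 139 of the 48440 genes in the data, of which 75 were *Cyp*, 19 *Ugt*, 27 *Sult* and 18 *Gst* genes, and 7 carry pseudogene names. The mean expression over the 6 libraries was at least 1 FPKM (fragments mapped to a gene, corrected for transcript length and library size) in 60 of the 139, namely 26 *Cyp*, 12 *Ugt*, 6 *Sult* and 16 *Gst* genes. Of the remaining 79, 44 were listed at 0 in every library and 35 lay between 0 and 1 FPKM.

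There were 3 libraries per genotype. Each is taken here as the adenomas of 1 separate mouse, which the sample titles and the study's sequencing methods do not state. All mice were on a C57BL/6 background, were older than 42 days by the labels, carried the ApcMin allele, which causes intestinal adenomas, and carried a Rosa26 iDTA/WT allele, which holds diphtheria toxin A behind a stop that Cre removes. ApcMin PCdel mice (libraries QC3, QC8 and QC10) also carried Cre knocked into the *Defa4* locus, a Paneth cell defensin gene, so that the toxin kills cells of the Paneth lineage. ApcMin littermates without Cre (libraries QC4, QC5 and QC6) served as controls. The Cre acts in any cell that has turned on *Defa4*, and the mice were of both sexes, which were not separated here. In such whole-tissue RNA, fewer cells of a type and less RNA per cell cannot be told apart.

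Drug-metabolising enzymes act in sequence. Cytochromes P450 oxidise lipophilic compounds with electrons from the reductase Por (phase I), and transferases then attach glucuronic acid (UGTs), sulfate (SULTs) or glutathione (GSTs), after which transporters pump the conjugates out (phase II and efflux). Small intestinal enterocytes are a major site of this first-pass metabolism, and ligand-activated transcription factors (the aryl hydrocarbon receptor Ahr and the nuclear receptors Nr1i2, the pregnane X receptor, and Nr1i3, the constitutive androstane receptor) are known to turn many of these genes on.

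The depth of the libraries was alike, between 5.407 and 5.876 gigabases of aligned sequence. The Paneth markers *Defa21* and *Defa22* were lower in every PCdel library (20.2 to 36.7 FPKM) than in every ApcMin library (129.2 to 351.8 FPKM), and each of the 9 Paneth markers tested had a negative log2 fold change. Its size differed widely, from -2.98 (*Defa21*) to -0.10 (*Pla2g2a*). *Lyz1* was at a mean of 1060 FPKM in PCdel and 2060 FPKM in ApcMin adenomas. For *Ang4* the means were 553.6 and 547.4 FPKM (log2 fold change -0.35, standard error 1.15). A single library, ApcMin QC6, stood apart from the other 5. The 22 enterocyte marker genes summed to 33995 FPKM in QC6 and to 15522 and 15035 FPKM in the other ApcMin libraries. They summed to between 14192 and 21403 FPKM in the PCdel libraries, and 15 of the 22 were highest in QC6. That was the case for 12.5% of all genes with a mean of at least 1 FPKM. The 8 proximal small intestine markers summed to 11606 FPKM in QC6 and to between 3039 and 4760 FPKM elsewhere. Most of the sum in QC6 was *Apoa4* (7440 FPKM) and *Fabp1* (3626 FPKM), which are also on the enterocyte list. While 5 of the 8 were highest in QC6, *Slc40a1* and *Cybrd1* were highest in QC5 and *Slc2a5* in QC3. The ileal bile acid binding protein *Fabp6* was at 1477 and 630.2 FPKM in PCdel libraries QC8 and QC10 and between 2.39 and 23.6 FPKM in the other 4. Of the other distal markers, only *Slc10a2* shared this pattern, at 36.3 and 13.0 FPKM against 0.905 to 6.41 FPKM. *Muc3* was lowest in QC10 (73.4 FPKM), *Amn* lowest in QC8 (9.98 FPKM) and *Cubn* highest in QC6 (10.6 FPKM). The markers of this list thus did not move together. Genes of other lists did share the pattern of *Fabp6* and were picked for it after the values were seen. *Slc51a* was at 116.7 and 104.6 FPKM in QC8 and QC10, against 40.9 to 57.3 FPKM elsewhere. *Slc51b* was at 137.0 and 135.0 FPKM, against 41.4 to 60.9 FPKM, and *Nr1h4* at 24.3 and 24.7 FPKM, against 10.4 to 16.5 FPKM. The 8 hepatocyte markers summed to between 65.0 and 142.1 FPKM in ApcMin and between 92.8 and 148.1 FPKM in PCdel libraries. Most of this was *Trf* (45.7 to 98.0 FPKM), while *Hp* reached 23.5 FPKM, *Alb* was between 5.60 and 19.9 FPKM and *Fgb* was listed at 0 in all 6. The part that enterocyte content and position have in the values below was not tested beyond the fit with an enterocyte score as a covariate.

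The 4 families together took 0.368% to 0.705% of the FPKM of a library, the largest share in QC6. The summed FPKM of all 139 genes was 2234, 2145 and 4267 in the ApcMin libraries QC4, QC5 and QC6 and 2417, 2191 and 2444 in the PCdel libraries QC3, QC8 and QC10. Apart from QC6, no library of either genotype left the range from 2145 to 2444 FPKM. A single gene, *Gsto1*, made up 19.3% of the members' mean FPKM, and the 10 most abundant made up 64.6%. The summed *Cyp* genes were at 728.4 ± 143.0 FPKM (SD, n = 3) in PCdel and 1013 ± 655.6 FPKM (SD, n = 3) in ApcMin adenomas, of which QC6 alone held 1769 FPKM. The summed *Gst* genes varied least relative to their mean, with 1018 ± 81.5 FPKM (SD, n = 3) in PCdel and 1136 ± 162.8 FPKM (SD, n = 3) in ApcMin adenomas.

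**Figure D1:**
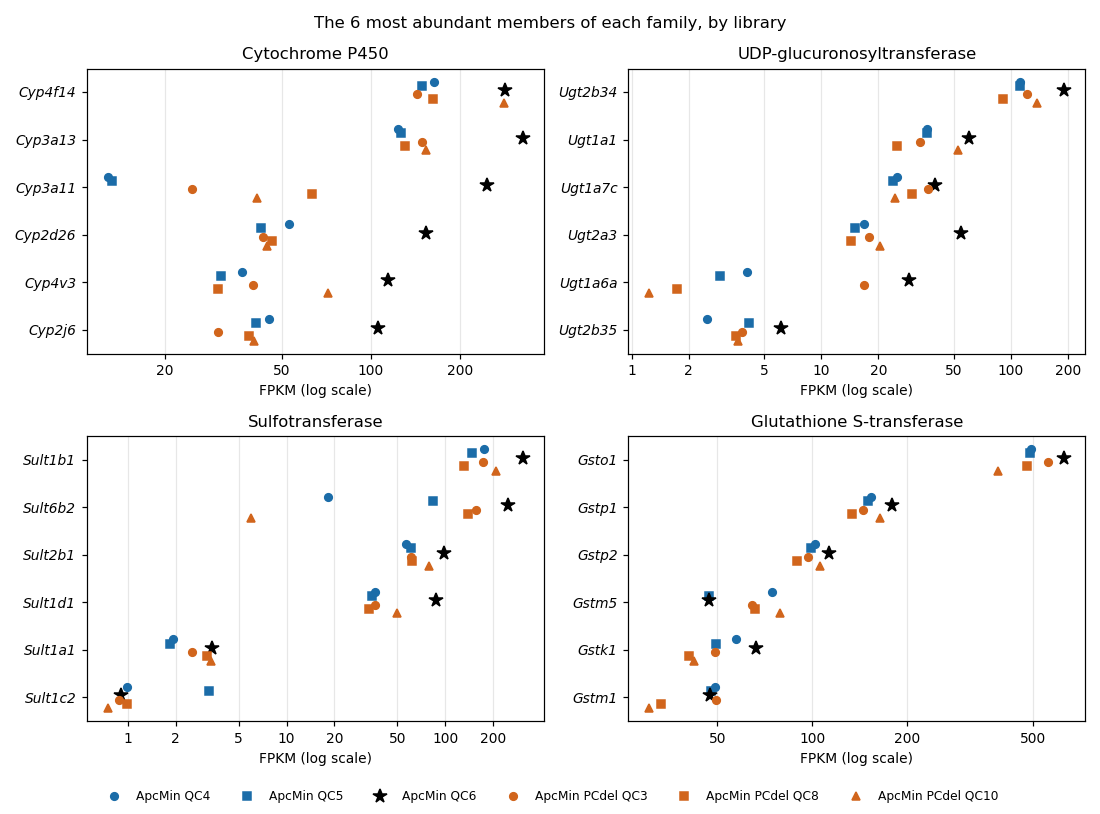
FPKM on a log axis of the 6 most abundant genes of each family, with 1 point per library (blue and black, ApcMin; orange, ApcMin PCdel; the black star is ApcMin library QC6). QC6 lies to the right of the other libraries for most *Cyp* and *Ugt* genes, for example at 327.6 FPKM of *Cyp3a13*, but not for *Gstm5*, where it is lowest, or *Gstm1*, where it is within their range.

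Genotypes were compared with limma over the 14240 genes with a mean of at least 1 FPKM. Fold changes are on the log2(FPKM + 1) scale, where those of low genes come out smaller than they are. Of the 60 members tested, 0 passed a Benjamini-Hochberg adjusted p of 0.05, against 2 of all genes (0.0140%). At an unadjusted p of 0.05, 0 members were higher in PCdel adenomas and 4 were lower, where 2.70% of all tested genes were higher and 0.681% were lower. The 4 were *Cyp4f16*, *Gstk1*, *Cyp2j9* and *Cyp2c65*, of which *Cyp2j9* reached the mean of 1 FPKM only through ApcMin library QC6, so its place in the count is no support for a difference. PCdel values lay wholly below ApcMin values in 5 members (these and *Cyp2j6*) and wholly above in 0, against 1.54% and 6.00% of all genes. The log2 fold change was negative in 48 of the 60 members and in 36.9% of all genes, with a median of -0.19 over the members and 0.04 over all genes. That lower median rested on QC6: without it, the median over the 52 members that still reached 1 FPKM was 0.08, with 31 positive and 21 negative values, where 49.3% of all genes tested without QC6 were positive and their median was -0.0027.

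QC6 was the highest of the 6 libraries in 44 of the 60 members, against 12.5% of all tested genes. It was at least 2-fold above the median of the other 5 libraries in 30 members, against 2.94% of all genes. The 30 include *Cyp3a59*, for which that median was 0. The median ratio of QC6 to that median was 2.0 over the members and 0.88 over all genes. By family the median ratio was 2.62 for the 26 *Cyp* genes, 3.96 for the 12 *Ugt* genes, 1.70 for the 6 *Sult* genes and 1.17 for the 16 *Gst* genes. All 12 *Ugt* genes tested were highest in QC6, against 19 *Cyp*, 5 *Sult* and 8 *Gst* genes. No member was at or below 0.5 of the median of the others in QC6 (0 of 60). In 8 members the mean reached 1 FPKM only with QC6 included: *Cyp1a1*, *Cyp3a44*, *Cyp3a59*, *Cyp2c67*, *Cyp2j9*, *Cyp2r1*, *Ugt1a6b* and *Ugt2b36*. All but *Cyp2r1* were highest in the library that let them in. Their place in the counts and medians above is therefore no support for a pattern. Among the other 5 libraries most members were even, with a median ratio of the highest to the lowest of 1.68 and a ratio under 2 in 41 members. When QC6 was set aside, QC10 was the highest of the 5 in 27 members (20.8% of all genes) and QC3 in 14 (19.5% of all genes).

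**Figure D2:**
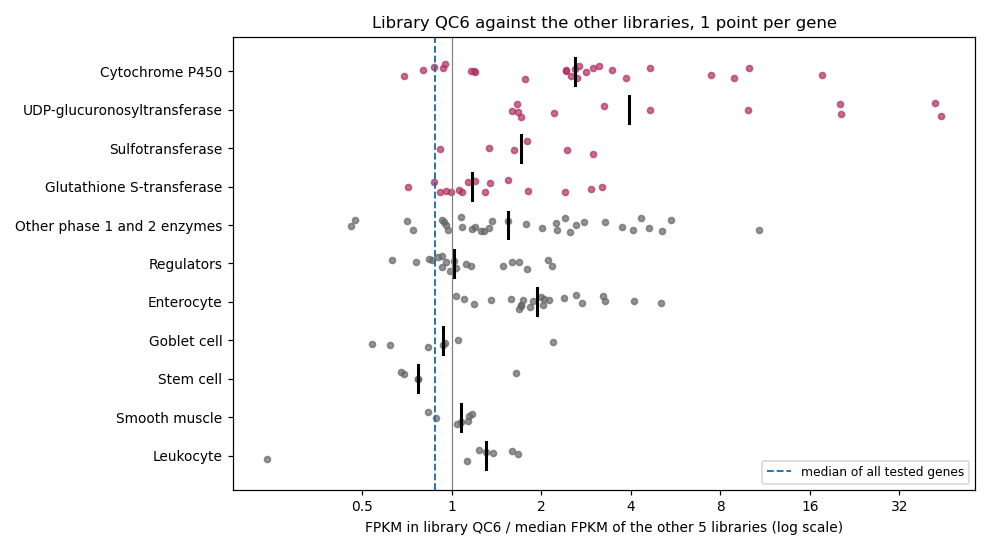
Ratio of the FPKM in ApcMin library QC6 to the median FPKM of the other 5 libraries, on a log axis, for each tested gene of the 4 families (red) and of other gene lists (grey), with black bars at the medians and a dashed line at the median of all tested genes (0.88). The *Ugt* genes reach furthest to the right, the enterocyte markers have a median of 1.93, and the regulators centre near 1 with a median of 1.02.

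The *Cyp1* family oxidises polycyclic aromatic compounds and is the classic target of Ahr. *Cyp1a1* (chromosome 9, 57697613 to 57703822, GRCm38) was at 0.315, 0.566 and 7.84 FPKM in QC4, QC5 and QC6 and at 0.447, 2.24 and 0.0490 FPKM in QC3, QC8 and QC10. QC6 was 17.6-fold above the median of the others, QC8 was next, and the genotypes overlapped (log2 fold change -0.63, standard error 0.78, exact two-sided permutation test, p = 0.6). *Ahrr*, the repressor that Ahr itself induces, was below 1 FPKM throughout and also highest in QC6 (0.680 FPKM) and QC8 (0.434 FPKM), while *Ahr* stayed between 4.72 and 5.84 FPKM in all 6 libraries. *Cyp1b1*, a related enzyme of extrahepatic tissue, did not share the pattern: it was lowest in QC6 (3.79 FPKM) and highest in QC3 (8.52 FPKM), with a log2 fold change of 0.31 (standard error 0.23).

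Among the *Cyp3* genes, all 5 that were tested were highest in QC6. *Cyp3a44* and *Cyp3a59* reached a mean of 1 FPKM only through QC6, so their place in this count is no support for a pattern. All but *Cyp3a59*, which has no ratio because the median of the others was 0, were at least 2-fold above that median. *Cyp3a11* (chromosome 5, 145854426 to 145879964), the main drug-oxidising P450 of mouse liver and a target of Nr1i2, was at 12.8, 13.3 and 248.1 FPKM in QC4, QC5 and QC6. In the PCdel libraries QC3, QC8 and QC10 it was at 24.8, 63.0 and 41.3 FPKM. Every PCdel library was thus above QC4 and QC5, and QC6 was above them all. With all libraries the log2 fold change was 0.17 (standard error 1.11, p = 0.885 in limma; exact two-sided permutation test, p = 1.0). Without QC6 it was 1.55 (unadjusted p = 0.00799, adjusted p = 0.786 in limma), whereas leaving out QC4 gave -0.54 and QC5 -0.51.

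*Cyp2b10* (chromosome 7, 25897620 to 25926624), the classic target of Nr1i3, was likewise highest in QC6 and lowest in QC4 and QC5. It was at 13.3, 10.2 and 165.0 FPKM in QC4, QC5 and QC6 and at 23.6, 31.7 and 22.1 FPKM in QC3, QC8 and QC10. The log2 fold change was -0.17 with all libraries (standard error 0.97; exact two-sided permutation test, p = 1.0) and 1.07 without QC6 (unadjusted p = 0.00224, adjusted p = 0.719 in limma). *Cyp3a13* (chromosome 5, 137892932 to 137921619), the *Cyp3a* gene best known from intestinal epithelium, varied less: 123.5, 126.2 and 327.6 FPKM in QC4, QC5 and QC6 and 148.8, 130.6 and 153.3 FPKM in QC3, QC8 and QC10. Its log2 fold change turned from -0.26 (standard error 0.37) to 0.20 without QC6. *Cyp3a59* was listed at 0 in QC4, QC5, QC3 and QC8, at 0.815 FPKM in QC10 and at 7.13 FPKM in QC6. Its reads are uncertain, since 49.9% of its 31-base words occur in transcripts of other genes, chiefly *Cyp3a25*.

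The promoters of *Cyp3a11*, *Cyp2b10* and *Cyp1a1* (250 bases before to 50 after the transcription start, from RefSeq on GRCm38.p6) are shown because these well-studied receptor targets differed widely between the libraries. Capitals mark matches, on either strand, to AGGTCA and AGTTCA (nuclear receptor half-sites), CAAAGTCCA (a site of the hepatocyte nuclear factor Hnf4a), GCGTG (the core bound by Ahr with Arnt) and TATAAA.
Cyp3a11, chr5:145879805-145880104, minus strand: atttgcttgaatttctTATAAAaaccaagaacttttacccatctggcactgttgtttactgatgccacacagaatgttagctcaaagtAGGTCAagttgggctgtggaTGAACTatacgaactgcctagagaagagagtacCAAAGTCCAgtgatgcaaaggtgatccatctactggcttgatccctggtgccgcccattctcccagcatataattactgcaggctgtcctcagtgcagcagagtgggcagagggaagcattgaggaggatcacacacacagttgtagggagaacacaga
Cyp2b10, chr7:25897408-25897707, plus strand: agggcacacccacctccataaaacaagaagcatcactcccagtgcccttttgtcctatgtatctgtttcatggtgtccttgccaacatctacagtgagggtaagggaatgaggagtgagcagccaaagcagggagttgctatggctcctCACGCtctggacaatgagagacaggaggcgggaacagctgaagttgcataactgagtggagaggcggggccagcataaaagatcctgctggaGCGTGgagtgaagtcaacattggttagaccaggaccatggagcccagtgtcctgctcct
Cyp1a1, chr9:57697363-57697662, plus strand: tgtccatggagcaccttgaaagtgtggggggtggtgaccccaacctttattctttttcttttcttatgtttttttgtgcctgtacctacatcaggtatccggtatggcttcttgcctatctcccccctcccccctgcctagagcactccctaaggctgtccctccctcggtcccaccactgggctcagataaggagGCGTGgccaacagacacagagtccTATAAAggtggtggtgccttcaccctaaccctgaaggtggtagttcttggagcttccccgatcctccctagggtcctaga
The *Cyp3a11* window holds both half-sites, the CAAAGTCCA motif and TATAAA. The *Cyp2b10* window holds GCGTG at 2 places, and the *Cyp1a1* window holds it once, beside TATAAA. RefSeq had promoters for 55 of the 60 tested members, 69 in all. GCGTG occurred in 26.1% of these and in 32.4% of all 32851 mouse promoters of the same length, AGGTCA in 18.8% and 16.3%, AGTTCA in 11.6% and 14.0%, and TATAAA in 17.4% and 13.6%. CAAAGTCCA occurred in 7.25% of member promoters (5 of 69) and 0.475% of all. The 5 were those of *Cyp2c65*, *Cyp2c67*, *Cyp2c68*, *Cyp3a11* and *Sult1b1*. As the *Cyp2c* genes are related and lie on the same chromosome, their promoters need not be independent occurrences. Each of the 5 genes was highest in QC6, as were 44 of the 60 tested members. *Cyp2c67* reached a mean of 1 FPKM only through QC6. A part of this motif in the levels was not tested. *Hnf4a* itself was between 227.2 and 291.1 FPKM in the 6 libraries.

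The *Cyp2* family was the largest, with 48 members of which 12 were tested and 18 were listed at 0 in all libraries. *Cyp2c65* (chromosome 19, 39061015 to 39093944), which oxidises arachidonic acid in the intestine, was at 28.2, 26.5 and 59.5 FPKM in QC4, QC5 and QC6 and at 19.9, 20.9 and 22.3 FPKM in QC3, QC8 and QC10. All PCdel libraries were below all ApcMin libraries, also with QC6 set aside. Its log2 fold change was -0.73 (standard error 0.30, unadjusted p = 0.0455, adjusted p = 1.0 in limma; exact two-sided permutation test, p = 0.1, as low as 3 against 3 can give) and -0.36 without QC6 (unadjusted p = 0.00792, adjusted p = 0.786). With the enterocyte score as a covariate it was -0.58 (unadjusted p = 6.85e-04, adjusted p = 0.548 in limma). The neighbouring *Cyp2c66*, with which it shares 33.5% of its 31-base words, was between 2.97 and 3.71 FPKM in 5 libraries and at 16.6 FPKM in QC6, a log2 fold change of -0.74 (standard error 0.51) that became -0.10 without QC6.

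The *Cyp2j* genes oxidise arachidonic and linoleic acid. *Cyp2j6* was at 45.1, 40.7 and 105.4 FPKM in QC4, QC5 and QC6 and at 30.3, 38.8 and 40.1 FPKM in QC3, QC8 and QC10. Its groups did not overlap, although QC5 and QC10 were close (log2 fold change -0.67, standard error 0.36; exact two-sided permutation test, p = 0.1). *Cyp2j9*, its neighbour, was at 1.02, 1.04 and 2.55 FPKM in ApcMin and at 0.598, 0.664 and 0.562 FPKM in PCdel libraries in the same order, a log2 fold change of -0.60 (standard error 0.23, unadjusted p = 0.0370, adjusted p = 1.0 in limma). Since its mean without QC6 was 0.776 FPKM, it entered the comparison only through an ApcMin library in which it was high, and it was not fitted without that library. Other abundant *Cyp2* genes overlapped between genotypes: *Cyp2d26* was between 42.3 and 52.8 FPKM in 5 libraries and at 154.1 FPKM in QC6, and *Cyp2s1*, an enzyme of epithelia outside the liver, was between 16.96 and 23.5 FPKM in all 6.

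The *Cyp4* family hydroxylates the end of fatty acid and eicosanoid chains. *Cyp4f14* (chromosome 17, 32905071 to 32917342), which inactivates leukotriene B4 and begins vitamin E breakdown, was the most abundant P450, at 199.4 ± 74.3 FPKM (SD, n = 3) in ApcMin and 196.1 ± 75.6 FPKM (SD, n = 3) in PCdel adenomas. It was highest in 1 library of each genotype, QC6 (284.8 FPKM) and QC10 (282.7 FPKM), as was *Cyp4v3* (114.2 and 71.5 FPKM, against 30.3 to 39.8 FPKM elsewhere). *Cyp4f16* (chromosome 17, 32536558 to 32551798) was at 47.7, 34.9 and 40.5 FPKM in QC4, QC5 and QC6 and at 26.6, 24.0 and 34.1 FPKM in QC3, QC8 and QC10. The groups did not overlap, with QC10 just below QC5. Its log2 fold change of -0.53 (standard error 0.17, unadjusted p = 0.0188, adjusted p = 1.0 in limma; exact two-sided permutation test, p = 0.1) was also -0.53 without QC6, and 26.8% of its 31-base words occur in other genes, mainly *Cyp4f37*.

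The 9 genes of the *Ugt1a* locus on chromosome 1 that are members each have their own first exon and are spliced to the same 4 exons that follow. The transcripts used here also differ in where the last exon ends, with 1311 to 1318 bases after the junction and 2316 in *Ugt1a7c*. *Ugt1a1*, which conjugates bilirubin, and the others are told apart mainly by reads over the first exon and its junction. The 60 bases around that junction are shown for the 7 tested genes because they show what a read there can separate. They were read from GENCODE transcripts on GRCm38, plus strand, with the end of the own exon in lower case and the start of the shared exon (chr1:88215044-88215175) in capitals.
Ugt1a1: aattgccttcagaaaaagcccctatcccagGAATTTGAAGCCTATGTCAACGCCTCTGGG
Ugt1a2: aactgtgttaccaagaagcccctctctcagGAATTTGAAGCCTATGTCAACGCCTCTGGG
Ugt1a5: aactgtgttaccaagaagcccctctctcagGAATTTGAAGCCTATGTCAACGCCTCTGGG
Ugt1a6a: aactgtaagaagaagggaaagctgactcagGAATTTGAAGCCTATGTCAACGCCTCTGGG
Ugt1a6b: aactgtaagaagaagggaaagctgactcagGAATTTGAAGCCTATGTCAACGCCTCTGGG
Ugt1a7c: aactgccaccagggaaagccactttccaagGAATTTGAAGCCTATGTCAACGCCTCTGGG
Ugt1a9: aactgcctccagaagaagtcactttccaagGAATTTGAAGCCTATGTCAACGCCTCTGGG
These 60 bases are the same in *Ugt1a2* and *Ugt1a5*, and the same in *Ugt1a6a* and *Ugt1a6b*. Over whole transcripts, between 53.0% (*Ugt1a6a*) and 84.2% (*Ugt1a6b*) of the 31-base words of these 7 genes occur in other genes, so the split of reads between them is uncertain.

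The genes of the locus fell into different patterns over the libraries. *Ugt1a1* (its own exon at 88211959 to 88212871) was at 36.3, 36.3 and 59.8 FPKM in QC4, QC5 and QC6 and at 33.1, 25.01 and 52.3 FPKM in QC3, QC8 and QC10 (log2 fold change -0.28, standard error 0.31; exact two-sided permutation test, p = 0.4). *Ugt1a6a* (own exon at 88138473 to 88139331), which conjugates small planar phenols, was at 4.07, 2.94 and 29.1 FPKM in QC4, QC5 and QC6 and at 16.9, 1.74 and 1.24 FPKM in QC3, QC8 and QC10. It was thus high in 1 library of each genotype, QC6 and QC3, and its log2 fold change of -0.82 (standard error 1.03; exact two-sided permutation test, p = 0.5) became 0.10 without QC6. *Ugt1a2*, *Ugt1a5*, *Ugt1a6b* and *Ugt1a9* had the same 2 libraries on top. *Ugt1a2* was at 7.41 FPKM in QC6 and 5.09 FPKM in QC3, between 0.141 and 0.184 FPKM in QC4, QC8 and QC10, and listed at 0 in QC5. *Ugt1a9* was at 12.9 FPKM in QC6, 4.09 FPKM in QC3 and 1.53 FPKM in QC8, and at or below 0.633 FPKM in the others.

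**Figure D3:**
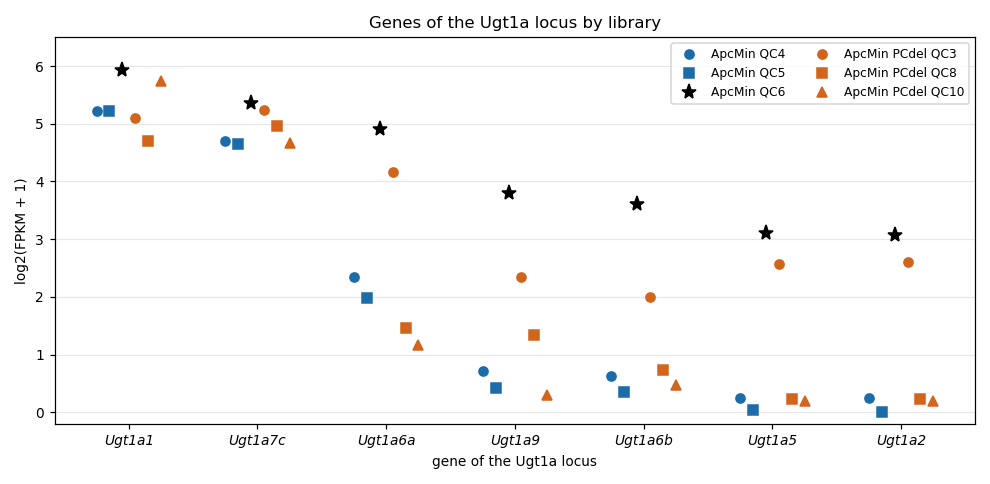
log2(FPKM + 1) of the 7 tested genes of the *Ugt1a* locus, with 1 point per library (blue and black, ApcMin; orange, ApcMin PCdel; the black star is ApcMin library QC6). For *Ugt1a6a*, *Ugt1a9*, *Ugt1a6b*, *Ugt1a5* and *Ugt1a2*, QC6 and PCdel library QC3 lie above the other 4, while *Ugt1a1* is high in all 6. The values of *Ugt1a7c* are shown as listed and are uncertain.

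*Ugt1a7c* was listed between 23.9 and 40.0 FPKM, but its FPKM was 36.3 times what its mean read coverage per gigabase of aligned sequence gave, a ratio that stayed at or below 2.39 in 58 of the 60 members. Its level is therefore uncertain, as is that of *Sult2b1* (ratio 17.4). Of the *Ugt2* genes, which conjugate steroids and bile acids, *Ugt2b34* was the most abundant at 138.2 ± 46.0 FPKM (SD, n = 3) in ApcMin and 116.4 ± 23.1 FPKM (SD, n = 3) in PCdel adenomas. *Ugt2a3* was between 14.3 and 20.4 FPKM in 5 libraries and at 54.5 FPKM in QC6. *Ugt2b35* was between 2.51 and 4.14 FPKM in 5 libraries and at 6.11 FPKM in QC6, and *Ugt2b5*, at lower levels, went from between 0.739 and 1.69 FPKM to 4.83 FPKM in QC6. All 5 *Ugt2* genes tested had overlapping genotypes.

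Of the 27 *Sult* genes, 18 were listed at 0 in all libraries, among them 12 of the 13 *Sult2* genes. *Sult1b1* (chromosome 5, 87513339 to 87538195), which sulfates phenols and thyroid hormones, was the most abundant, at 175.8, 147.4 and 309.5 FPKM in QC4, QC5 and QC6 and 173.1, 131.8 and 208.5 FPKM in QC3, QC8 and QC10. None of its 31-base words occur in other genes (0%). Its neighbour *Sult1d1*, which sulfates catecholamines, was between 33.1 and 49.6 FPKM in 5 libraries and at 87.7 FPKM in QC6. *Sult2b1*, which sulfates cholesterol, was between 56.8 and 98.3 FPKM. *Sult1a1*, the phenol sulfotransferase, was at 1.94, 1.84 and 3.40 FPKM in QC4, QC5 and QC6 and at 2.55, 3.17 and 3.34 FPKM in QC3, QC8 and QC10. Its log2 fold change was 0.27 (standard error 0.19) with all libraries and 0.47 without QC6 (unadjusted p = 0.0120, adjusted p = 0.835 in limma), and the first is 1 of the 5 largest positive values among the members. *Sult1c2* was at 3.23 FPKM in QC5 and between 0.746 and 0.987 FPKM in the other 5.

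*Sult6b2* (chromosome 6, 142785204 to 142804502) varied most among the 5 libraries other than QC6, of the members with a mean of at least 10 FPKM. It was at 18.3, 83.4 and 249.0 FPKM in QC4, QC5 and QC6 and at 156.2, 139.0 and 5.98 FPKM in QC3, QC8 and QC10. A single library of each genotype, QC4 and QC10, was thus far below the rest, and among those 5 the highest was 26.1-fold above the lowest. Its log2 fold change was -0.47 (standard error 1.41; exact two-sided permutation test, p = 0.8). *Papss2*, which makes the sulfate donor for these enzymes, was also lowest in QC4 (47.4 FPKM) and QC10 (37.1 FPKM) and between 122.7 and 177.0 FPKM in the other 4. This likeness was noticed after the values were seen, over 6 libraries.

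Glutathione S-transferases conjugate electrophiles, and they were the most even of the families. *Gsto1* (chromosome 19, 47854970 to 47864790), which reduces dehydroascorbate and arsenic compounds, was the most abundant member, at 490.9, 487.2 and 628.2 FPKM in QC4, QC5 and QC6 and 559.3, 479.7 and 386.6 FPKM in QC3, QC8 and QC10. *Gstp1* (chromosome 19, 4035407 to 4037921), the pi-class enzyme that is often raised in tumours, was at 160.8 ± 16.1 FPKM (SD, n = 3) in ApcMin and 147.3 ± 15.2 FPKM (SD, n = 3) in PCdel adenomas (log2 fold change -0.13, standard error 0.13). *Gstp2*, next to it, was at 104.6 ± 7.19 and 97.4 ± 7.98 FPKM (SD, n = 3 each), but 54.8% of its 31-base words occur in *Gstp1*, so the 2 are uncertain.

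*Gstk1* (chromosome 6, 42245935 to 42250447), the kappa-class enzyme of mitochondria and peroxisomes, was at 57.3, 49.5 and 66.5 FPKM in QC4, QC5 and QC6 and at 49.3, 40.7 and 42.1 FPKM in QC3, QC8 and QC10. The groups did not overlap, although QC5 and QC3 differed by little. Its log2 fold change was -0.38 (standard error 0.14, unadjusted p = 0.0336, adjusted p = 1.0 in limma; exact two-sided permutation test, p = 0.1) and -0.27 without QC6 (unadjusted p = 0.0737). The other single-gene classes differed less, with *Gstz1*, an enzyme of tyrosine breakdown, between 17.2 and 21.2 FPKM in all 6 libraries.

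The 8 mu-class genes were all tested, and 7 of them lie in 1 cluster on chromosome 3 (107895821 to 108044894). Neighbours in it differed in how QC6 related to the other libraries. *Gstm3* and *Gstm6* were 3.20- and 2.93-fold above the median of the others in QC6, at 48.8 and 40.5 FPKM. *Gstm1*, *Gstm2*, *Gstm4*, *Gstm5* and *Gstm7* were at 0.992, 0.912, 0.868, 0.712 and 0.953 of it. *Gstm1* was at 49.2, 47.6 and 47.3 FPKM in QC4, QC5 and QC6 and at 49.6, 33.1 and 30.4 FPKM in QC3, QC8 and QC10, even in ApcMin and low in 2 of the 3 PCdel libraries (log2 fold change -0.37, standard error 0.19; exact two-sided permutation test, p = 0.4). *Gstm5* had the largest positive log2 fold change of the members, 0.34 (standard error 0.20), with 56.2 ± 15.9 FPKM (SD, n = 3) in ApcMin and 69.9 ± 8.03 FPKM (SD, n = 3) in PCdel adenomas, with QC4 (74.6 FPKM) within the PCdel range. *Gstm7* had a log2 fold change of 0.14 (standard error 0.15).

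Without QC6, and at an unadjusted p of 0.05, 4 of 52 members were higher in PCdel adenomas and 2 were lower, against 3.43% and 2.35% of all genes, and 0 passed after adjustment (smallest adjusted p = 0.719 in limma). The higher ones were *Cyp2b10*, *Cyp3a11*, *Sult1a1* and *Gstt1*, and the lower ones *Cyp2c65* and *Cyp4f16*. *Gstt1*, named for this count, was at 14.3 and 15.7 FPKM in QC4 and QC5 and at 19.8, 20.2 and 17.8 FPKM in QC3, QC8 and QC10, and at 42.9 FPKM in QC6. QC6 was 1 of 6 libraries left out in turn and is singled out because it stood apart.

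**Figure D4:**
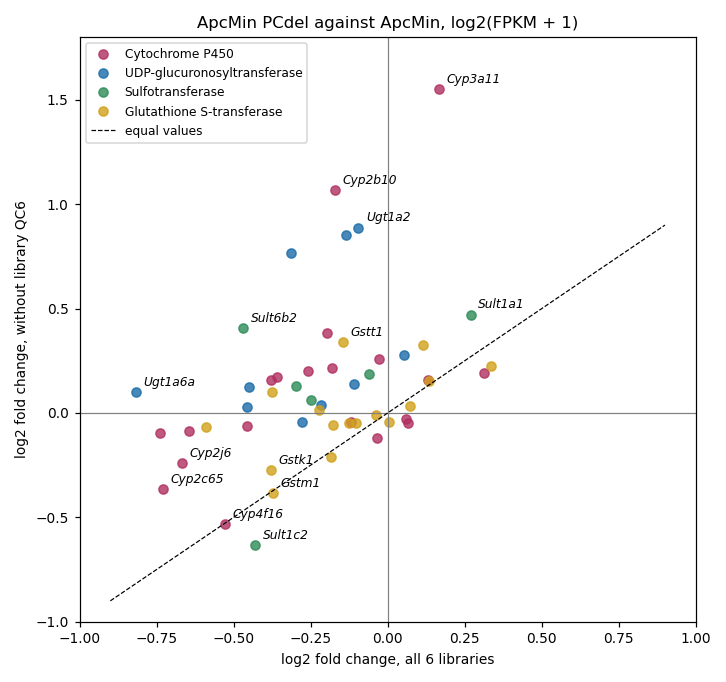
log2 fold change of ApcMin PCdel against ApcMin with all 6 libraries (x axis) and without ApcMin library QC6 (y axis) for the 52 members tested in both, coloured by family; the dashed line marks equal values. Most points lie above the line, *Cyp3a11* (0.17 and 1.55) and *Cyp2b10* (-0.17 and 1.07) furthest, and *Cyp4f16* lies on it (-0.53 and -0.53).

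Other genes of the pathway were taken from lists. Of 20 regulators, 19 were tested, and 0 had an unadjusted p under 0.05 in either direction (median log2 fold change 0.02). *Nr1i2* was at 24.4, 23.0 and 43.5 FPKM in QC4, QC5 and QC6 and at 26.3, 21.6 and 29.3 FPKM in QC3, QC8 and QC10. *Nr1i3* was at 16.2 FPKM in QC6 and between 6.36 and 9.19 FPKM elsewhere, and *Nfe2l2*, the regulator of antioxidant genes, was between 82.8 and 96.5 FPKM in all. Among the regulators, *Nr1i3* and the fatty acid receptor *Ppara* (2 of 19) were at least 2-fold above the median of the others in QC6. The share over all tested genes was 2.94%.

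Of the 14 genes of electron transfer and cosubstrate supply, 0 had an unadjusted p under 0.05. Of all tested genes 12.5% were highest in QC6, and of these 14 genes 9 were. *Por* was at 94.1, 95.2 and 174.3 FPKM in QC4, QC5 and QC6 and at 156.0, 79.7 and 95.5 FPKM in QC3, QC8 and QC10, with the same pair of high libraries as the minor *Ugt1a* genes. The conjugate exporter *Abcc2* was also highest in QC3 (30.6 FPKM) and QC6 (26.1 FPKM), against 14.1 to 16.8 FPKM elsewhere. It was picked for this likeness after the values were seen. Of 38 other phase I and II enzymes, 33 were tested and 0 had an unadjusted p under 0.05. In QC6, 20 were highest (12.5% of all tested genes) and 15 were at least 2-fold above the median of the others (2.94%). Of 10 efflux transporters, 9 were tested and *Abcc4* had an unadjusted p under 0.05 (log2 fold change 0.47, unadjusted p = 0.0435), at 6.27, 5.35 and 3.43 FPKM in QC4, QC5 and QC6 and 7.19, 6.73 and 7.56 FPKM in QC3, QC8 and QC10.

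Of the marker lists, those of enterocytes (16 of 22 tested markers negative, median log2 fold change -0.16) and of the proximal small intestine (8 of 8 negative, median -0.21) moved with the members, and both medians shifted without QC6, to 0.22 and -0.01. Of all tested genes, 36.9% were negative. Distal markers were positive in 3 of 6, and the 4 hepatocyte markers tested, of 8, were all positive. Those 4 hepatocyte markers were all lowest in QC6, and their median log2 fold change went from 0.39 to 0.04 without it. Among the 7 goblet cell and 5 stem cell markers, 0 were highest in QC6, where 12.5% of all tested genes were. So few genes cannot tell 0 from that share. *Clca1* and *Olfm4* were still 2.19- and 1.65-fold above the median of the others in QC6. Fibroblast markers were positive in 6 of 6, with an unadjusted p under 0.05 for *Dcn* and *Pdgfra*. They too were all lowest in QC6, and their median went from 0.29 to 0.13 without it, with *Col1a1* (-0.05) and *Col1a2* (-0.0018) negative. Smooth muscle markers were positive in 7 of 7, with a median of 0.31 that became 0.41 without QC6. In Paneth markers 5 of 9 had an unadjusted p under 0.05, all lower (*Defa21*, *Defa22*, *Lyz1*, *Mptx2* and *Itln1*), as had the leukocyte marker *Lyz2*. At that threshold 0.681% of all tested genes were lower and 2.70% were higher. With the enterocyte score as a covariate, the median over the 60 members was -0.08, with 1 member higher (*Sult1a1*) and 8 lower at an unadjusted p of 0.05 (*Cyp2c65*, *Cyp2j9*, *Cyp2j6*, *Cyp2d26*, *Gstk1*, *Cyp4f16*, *Cyp2c66* and *Ugt2a3*). In the same fit 3.43% of all genes were higher and 1.36% were lower, and 0 members passed after adjustment (smallest adjusted p = 0.548 in limma). *Cyp2j9* was tested only through QC6, so its place in the 8 is no support for a difference. The score was 0.776 in QC6 and between -0.304 and 0.025 elsewhere, so it mainly sets QC6 apart. In the fit without QC6, *Cyp2d26*, *Cyp2c66* and *Ugt2a3* were at -0.08, -0.10 and 0.12. *Cyp2c65*, *Cyp2j6*, *Gstk1* and *Cyp4f16* were at -0.36, -0.24, -0.27 and -0.53.

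The other members tested, which no rule names, had overlapping genotypes. Several of them followed QC6: *Cyp3a25* was at 75.6 FPKM there and between 16.5 and 42.0 FPKM elsewhere, *Cyp4b1* at 39.1 against 12.03 to 27.3 FPKM, *Cyp2c68* at 33.9 against 8.61 to 15.4 FPKM, and *Cyp2d22* at 7.56 against 2.40 to 4.10 FPKM. Others did not, such as *Cyp4f40*, between 17.3 and 33.6 FPKM and highest in QC10, *Cyp4f18*, a leukotriene B4 hydroxylase of neutrophils, between 1.72 and 4.13 FPKM and highest in QC5, and *Cyp2u1*, between 1.003 and 1.86 FPKM and highest in QC3. The theta-class *Gstt2* and *Gstt3* were between 14.8 and 22.5 FPKM and between 14.0 and 26.8 FPKM.

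The members next to the limit of 1 FPKM were *Cyp2r1* (1.01 FPKM), *Cyp2j9* (1.07 FPKM) and *Cyp2c67* (1.09 FPKM) above it and *Cyp2c55* (0.932 FPKM), *Cyp2c29* (0.930 FPKM) and *Sult4a1* (0.890 FPKM) below it. *Cyp2c29* reached 5.05 FPKM in QC6 and was at or below 0.487 FPKM in the other 5 libraries.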

How the data were processed

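RNA from small intestinal adenomas was sequenced in 3 ApcMin PCdel and 3 ApcMin libraries, with the TruSeq RNA kit on a HiSeq2500. The study's methods name CLC Genomics Workbench 7 for alignment and statistics. For each library the authors deposited FPKM per gene, which is scaled for length and library size. TPM per gene, with a fixed sum per library, was deposited by the authors too, as was the unscaled read coverage, used here for depth and as a check of FPKM. The program and annotation behind these tables are not given in the sources used here, and the positions were taken as GRCm38, since 113 of the 139 members had the same start and end in GENCODE M21, the other 26 differed in start or end, and all 139 overlapped the gene of the same identifier. Read counts are not known, so no counting intervals were derived.

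FPKM was summed per gene. Genes with a mean of at least 1 FPKM (14240) were compared with limma 3.58.1 in R 4.3.3 (eBayes with trend) on log2(FPKM + 1). P-values were adjusted by Benjamini-Hochberg over all of these genes, and 0.05 was the threshold. An exact two-sided permutation test over the 6 libraries was run for single genes. On simulated data with noise drawn separately for each gene, 89.5% of 200 genes changed by 2 (log2) were recovered, among 14240. In the same run 9 unchanged genes were called. The largest change of a member was -0.82 (*Ugt1a6a*), so the simulation does not show how often changes of the members' size would be found. Members, lists and tests were chosen with earlier results of these data known. Genes named are the 6 most abundant of each family, members with an unadjusted p under 0.05, the 5 largest and 5 smallest log2 fold changes, a fixed set of well-known members, and list genes with an unadjusted p under 0.05. *Ahr*, *Nr1i2*, *Nfe2l2* and *Por* were named in any case. Others, such as *Gstt1*, *Papss2* and *Abcc2*, were named for a count or picked as examples after the values were seen. Shared sequence is the percent of a gene's 31-base words, on either strand, found in transcripts of other genes of GENCODE M21.

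Alternatives were a pseudocount of 0.1, no filter, a mean FPKM of at least 5, TPM, quantile normalization, median centring, eBayes without trend, array quality weights, an enterocyte score as a covariate, and each library left out.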

Additional observations from a re-analysis of the deposited data

How the results depend on the processing

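The number of members past the adjusted threshold in limma was 0 in all 15 alternatives. At an unadjusted p of 0.05, the number higher in PCdel adenomas went from 0 to 1 without the filter (*Cyp4f17*), to 1 with array quality weights and to 1 with the enterocyte score as a covariate (*Sult1a1* in both), and ranged from 0 to 4 with each library left out. The number lower went from 4 to 2 with median centring and to 8 with the enterocyte score, and ranged from 0 (without PCdel library QC8) to 5 with each library left out; it was 2 without QC4, QC6 or QC3 and 1 without QC10. The median log2 fold change of the members, -0.193, was 0.045 with array quality weights, which gave QC6 a weight of 0.237, and ranged from -0.449 (without QC5) to 0.081 (without QC6) with each library left out. In the other alternatives it stayed negative.

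Of the 19 genes whose log2 fold change was followed, 13 kept their sign in every alternative in which they were tested. With array quality weights the sign turned for *Cyp3a13* (0.115), *Ugt1a6a* (0.358), *Cyp3a59* (0.015), *Cyp2b10* (0.970) and *Cyp1a1* (0.159), and with the enterocyte score for *Cyp2b10* (0.328). With each library left out, *Cyp3a11* ranged from -0.535 to 1.55, *Cyp2b10* from -0.879 to 1.068, *Cyp3a13* from -0.497 to 0.203 and *Ugt1a6a* from -1.768 to 0.099. Beyond the library left out, the cause was not tested. By TPM, 64 members in place of 60 had a mean of at least 1. The summed PCdel level was 71.9% of ApcMin for *Cyp*, 80.2% for *Ugt*, 83.8% for *Sult* and 89.7% for *Gst* genes by FPKM, and 75.7%, 84.1%, 88.2% and 93.6% by TPM. Without QC6, an alternative for these sums chosen after seeing the data, it turned to 114.7%, 110.9% and 122.9% for *Cyp*, *Ugt* and *Sult* genes and was 97.6% for *Gst* genes by FPKM. No paired analysis was possible because no sample label ties a mouse of 1 genotype to a mouse of the other. With 3 libraries per genotype the exact test cannot go below 0.1, and depth, alike in all libraries, does not lift that limit.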
